A study of Mus musculus with 32 samples.

Results

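The 10 genes described here mark the dopamine and serotonin neurons of the brain: Th, Ddc, Slc6a3, Slc18a2, Nr4a2, Pitx3, Tph2, Slc6a4, Fev and Maob. They were chosen by symbol, with earlier results of these data known. All 10 are among the 55291 gene symbols of the count tables. Messenger RNA was sequenced from the whole brain of C57BL/6J mice that were wild type (WT, labelled Dhcr7+/+) or lacked the cholesterol synthesis gene Dhcr7 (KO, labelled Dhcr7-/-). Each genotype was sampled in embryos of day E12.5, of day E14.5 and of day E16.5 and in newborns (PND0, postnatal day 0), with 4 libraries in each of the 8 groups and 32 in all. Mice without Dhcr7 are used to model Smith-Lemli-Opitz syndrome, an inherited defect of the last step of cholesterol synthesis. The labels give no litter, sex or dissection boundary, so p-values measure only the spread between these libraries.

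Dopamine neurons of the ventral midbrain make their transmitter from tyrosine with the hydroxylase encoded by Th and the decarboxylase encoded by Ddc. The vesicular transporter Slc18a2 packs the transmitter into vesicles and the plasma membrane transporter Slc6a3 takes it back up after release. The transcription factors Nr4a2 and Pitx3 are needed to form and keep these cells. Serotonin neurons lie in the raphe nuclei of the hindbrain, depend on the transcription factor Fev, make serotonin with Tph2 and Ddc, and recapture it with Slc6a4. Maob breaks monoamines down and is found in serotonin neurons, astrocytes and other cells. Both neuron types are few in number and lie in the brainstem. Th, Ddc, Slc18a2 and Nr4a2 are also used by other cells: Th by noradrenaline and olfactory bulb cells, Nr4a2 by neurons of the deep cortex.

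Library totals ran from 13868087 to 28318857 counts. Levels are given as CPM, counts relative to the library total after scaling the totals by TMM over all 32 libraries, so that they can be read across stages. Stages are given in the order E12.5, E14.5, E16.5, PND0, and library values in the order of replicates 1 to 4. The labels were checked with Dhcr7, whose mean level in KO was 32.7%, 18.9%, 27.2% and 16.1% of that in WT at the 4 stages. The groups did not overlap for Dhcr7 at any stage, and it was lower in KO by edgeR's quasi-likelihood test at each (largest adjusted p = 0.00824, at E12.5).

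2 libraries stood apart in the genes of the region that holds the dopamine neurons. A list of 8 midbrain genes (En1, En2, Pax5, Pax7, Helt, Tal2, Sox14, Pou4f1) summed to 6.77 CPM in E16.5 WT replicate 1, where the other 7 libraries of that stage had 58.7 to 149.1 CPM. The sum was 3.54 CPM in PND0 KO replicate 4 and 37.9 to 149.1 CPM in the other 7 libraries of PND0. In these libraries, in that order, En1, which patterns the midbrain, was at 0.716 and 0.480 CPM, and En2 at 0.846 and 0.300 CPM. Slc18a2 was at 33.1 and 28.5 CPM and Nr4a2 at 53.3 and 90.7 CPM in the same pair, within or above the range of their groups, and 6 pan-neuronal genes summed to between 4940 and 6034 CPM in all 16 libraries of E16.5 and PND0. A list of 16 Hox genes of hindbrain and spinal cord summed to 22.9 CPM in E12.5 WT replicate 1, against 0.361 to 4.02 CPM in the other 7 libraries of that stage. That library also held the highest sums of that stage for pituitary genes (48.8 CPM) and sensory ganglion genes (66.1 CPM). At E16.5 the Hox sum was highest in WT replicate 2 (6.86 CPM). At PND0 it was highest in WT replicate 4 (4.78 CPM). All 16 Hox genes had no count in any KO library, and none in WT replicate 2 either. The mean log2 CPM of the list was -3.21 in those libraries and -3.10 and -3.07 in WT replicates 1 and 3. It was -1.84 in WT replicate 4.

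The sequences just before the start sites of 5 members are shown because Th and Ddc make dopamine, Tph2 makes serotonin, and Slc6a3 and Slc6a4 take each back up. They are 100 bases long, end next to the annotated start, read 5′ to 3′ on the strand of the gene, and come from RefSeq on mouse build GRCm38.p6. Capitals mark matches to 4 short motifs searched on both strands. These are AAAGGTCA (the NBRE element, bound by Nr4a2), TAATCC (bound by Pitx factors), TGACGTCA (the cyclic AMP response element) and TATAAA (the TATA box).
Th, chr7:142899996-142900095, minus strand: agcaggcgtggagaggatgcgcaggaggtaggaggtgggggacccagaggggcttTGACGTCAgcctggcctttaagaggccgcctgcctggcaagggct
Ddc, chr11:11898145-11898244, minus strand: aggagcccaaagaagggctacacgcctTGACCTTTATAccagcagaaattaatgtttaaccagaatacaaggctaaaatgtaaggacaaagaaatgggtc
Slc6a3, chr13:73536647-73536746, plus strand: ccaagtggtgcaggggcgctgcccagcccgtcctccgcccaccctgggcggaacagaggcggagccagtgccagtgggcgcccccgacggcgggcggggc
Tph2, chr10:115185023-115185122, minus strand: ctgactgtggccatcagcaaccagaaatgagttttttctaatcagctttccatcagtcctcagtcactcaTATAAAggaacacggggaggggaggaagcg
Slc6a4, chr11:76998497-76998596, plus strand: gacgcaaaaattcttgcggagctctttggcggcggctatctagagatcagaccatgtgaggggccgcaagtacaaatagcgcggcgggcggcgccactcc

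Th holds TGACGTCA, which reads the same on both strands, from base -45 to -38 before its start, and Slc18a2 holds it from -4 to 3. Tph2 holds TATAAA from -30 to -25. Ddc holds, on the opposite strand of the window shown, AAAGGTCA from -73 to -66 and a TATAAA that overlaps it from -68 to -63. The other Ddc window, which takes in chr11:11890409-11890508, holds none of the 4 motifs. Which start of Ddc is used in these brains was not tested. Nr4a2 holds TATAAA on the opposite strand from -164 to -159, and TAATCC is in no member's window. The transporters Slc6a3 and Slc6a4 hold none of the 4 in the window searched, which runs from 250 bases before the start to 50 after it. Over the 32851 promoters of that table, 1.51% hold AAAGGTCA, 7.06% TAATCC, 1.79% TGACGTCA and 13.6% TATAAA. 9 members matched an entry, with 10 windows between them (Ddc has a pair), and Maob matched none. Such matches describe letters and do not show a bound site.

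The members lie on 8 chromosomes in the GENCODE M21 annotation of GRCm38. Th spans chr7:142892752-142931128 on the minus strand and lies 0.892 Mb from Dhcr7 (chr7:143823145-143848410), the gene changed in the KO. Ddc is at chr11:11814101-11898144 and Slc6a4 at chr11:76998603-77032340, Slc18a2 at chr19:59260896-59296012 and Pitx3 at chr19:46135685-46148326. Slc6a3 is at chr13:73536747-73578672, Nr4a2 at chr2:57106830-57124003, Tph2 at chr10:115078641-115185022, Fev at chr1:74881509-74885419 and Maob at chrX:16709282-16817366. All are protein coding. Slc18a2 shares 111 bp of exon with the antisense gene Gm29261 and Pitx3 shares 10 bp with Elovl3. The strand setting of the counting is not given in the sources used here.

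In WT brain no change passed the test for the genes that make dopamine, while its uptake transporter rose. Th was at 6.39, 9.33, 8.84 and 10.3 CPM at E12.5, and at 8.46, 7.67, 9.17 and 7.94 CPM at E14.5. It was at 4.56, 8.47, 4.01 and 7.94 CPM at E16.5 and at 5.97, 8.72, 10.4 and 8.33 CPM at PND0. The 4 stages overlapped throughout, with means of 8.72 ± 1.66, 8.31 ± 0.660, 6.25 ± 2.28 and 8.37 ± 1.84 CPM (SD, n = 4). Ddc, the enzyme both cell types share, had means of 11.4 ± 1.91, 10.9 ± 0.561, 10.3 ± 6.41 and 10.9 ± 3.83 CPM. No step between neighbouring stages passed the threshold (adjusted p under 0.05) for Th or Ddc by edgeR's quasi-likelihood test. For Th the log2 fold change from E14.5 to E16.5 was -0.40 (adjusted p = 0.120). That fall passed without the filter on low counts (adjusted p = 0.0130) and with a covariate for sex-linked genes (adjusted p = 0.0374). At E16.5 Ddc fell into a low pair (4.88 and 4.91 CPM, replicates 1 and 3) and a high pair (17.3 and 14.2 CPM, replicates 2 and 4). Th was lower in the same pair of libraries.

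Slc6a3, the transporter that ends the dopamine signal, was at 0.239, 0.737, 0.808 and 0.250 CPM in WT at E12.5, which is 4 to 14 counts a library. It was at 1.77, 1.996, 1.23 and 1.93 CPM at E14.5, all above E12.5. At E16.5 it was at 1.43, 5.01, 4.37 and 3.59 CPM, where replicate 1 fell within the E14.5 range and the other 3 libraries lay above it. At PND0 it was at 7.94, 6.14, 15.4 and 4.17 CPM. From E12.5 to E14.5 Slc6a3 rose by a log2 fold change of 1.80 ± 0.392 (SE, adjusted p = 0.00294, edgeR's quasi-likelihood test). From E14.5 to E16.5 it rose by 1.06 ± 0.310 (adjusted p = 0.00974), a call lost when all 32 libraries were fitted together (adjusted p = 0.0893). The difference from E16.5 to PND0 was 1.15 ± 0.459 and did not pass the threshold (adjusted p = 0.0604), but passed in the fit of all 32 libraries (adjusted p = 0.0344).

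Slc18a2, the vesicular transporter of all monoamine neurons, was at 17.7, 25.5, 36.0 and 32.3 CPM in WT at E12.5 and at 40.6, 48.0, 43.4 and 42.4 CPM at E14.5. The stages did not overlap, and Slc18a2 rose by a log2 fold change of 0.63 ± 0.184 (adjusted p = 0.0176, edgeR's quasi-likelihood test). Without the filter on low counts that call was lost (adjusted p = 0.0645). It then fell by 0.30 on the log2 scale to E16.5 (adjusted p = 0.00641), where it was at 33.1, 30.3, 36.4 and 40.8 CPM, and had a mean of 34.8 ± 7.32 CPM at PND0. The fall was not called in the fit of all 32 libraries (adjusted p = 0.0896), and the step from E16.5 to PND0 did not pass the threshold for Slc18a2.

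Nr4a2, the nuclear receptor of the dopamine lineage, rose at birth. In WT it was at 29.6, 43.0, 41.2 and 42.6 CPM at E12.5 and then at 45.5 to 47.9 CPM at E14.5. E16.5 libraries were at 53.3, 32.3, 26.1 and 38.9 CPM. At PND0 it was at 78.6, 76.3, 96.2 and 70.1 CPM, above every embryonic WT library. Nr4a2 rose from E16.5 to PND0 by a log2 fold change of 1.04 ± 0.1998 (adjusted p = 0.00179, edgeR's quasi-likelihood test). Pitx3, the homeobox factor of midbrain dopamine neurons and of the lens, went the other way in its means, from 1.81 ± 0.572 CPM at E12.5 to 1.44 ± 0.267, 0.748 ± 0.863 and 0.377 ± 0.322 CPM. None of its steps that could be tested passed the threshold, and from E16.5 to PND0 its counts were too low for a test. At PND0 Pitx3 had 1, 7, 14 and 4 counts in the WT libraries.

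The serotonin genes were low and, by the SD of log2 CPM in WT, most uneven between brains at E16.5 and PND0. Fev was uneven at E12.5 too, from 1 to 21 counts. Tph2, the neuronal tryptophan hydroxylase, was at 0.837, 0.246, 0.751 and 1.18 CPM in WT at E12.5 and at 2.92, 1.82, 1.63 and 2.81 CPM at E14.5, with no overlap. It rose by a log2 fold change of 1.53 ± 0.374 (adjusted p = 0.00551, edgeR's quasi-likelihood test), which lost its call in the fit of all 32 libraries (adjusted p = 0.0750). At E16.5 it was at 0.130, 6.05, 0.599 and 1.66 CPM, from 2 to 105 counts, so that the highest library was 46.5 times the lowest. At PND0 it was at 0.696, 2.46, 8.85 and 5.08 CPM, and neither later step passed the threshold for Tph2.

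Slc6a4, the serotonin transporter, was at 3.53, 1.35, 2.95 and 2.18 CPM in WT at E12.5 and at 4.69, 3.50, 4.18 and 3.32 CPM at E14.5. It was at 1.11, 12.05, 2.34 and 2.37 CPM at E16.5 and at 3.60, 9.89, 20.03 and 10.4 CPM at PND0. Its highest mean was at PND0 (10.97 ± 6.78 CPM), but no step passed the threshold by edgeR's quasi-likelihood test, the smallest adjusted p being 0.0625 from E12.5 to E14.5. Fev, the transcription factor of the serotonin lineage, was at 1.25, 0.0614, 1.04 and 0.716 CPM at E12.5 and at 1.28, 1.05, 1.27 and 1.302 CPM at E14.5. It was at 0, 1.33, 0.120 and 0.640 CPM at E16.5 and at 0, 0.775, 0.851 and 1.07 CPM at PND0. The counts of 0, in replicate 1 at both stages, allow up to 0.195 CPM at E16.5 and 0.174 CPM at PND0 (3 counts, for counting error only). No step passed the threshold for Fev.

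Maob, the monoamine oxidase, fell and then rose again. In WT it was at 6.81, 5.46, 2.60 and 4.97 CPM at E12.5 and at 1.64, 0.911, 0.772 and 1.55 CPM at E14.5. E16.5 libraries were at 2.02, 2.19, 2.34 and 2.30 CPM and PND0 libraries at 3.36, 5.75, 5.96 and 3.71 CPM. No neighbouring stages overlapped. Maob fell by 2.04 on the log2 scale from E12.5 to E14.5 (adjusted p = 0.000605, edgeR's quasi-likelihood test). It rose by 0.87 ± 0.264 to E16.5 (adjusted p = 0.0100) and by 1.02 ± 0.238 to PND0 (adjusted p = 0.00228). The E12.5 level lay beside marker values that also differed: pituitary genes summed to 5.54 to 48.8 CPM in WT at E12.5 and 0.817 to 1.95 CPM at E14.5. The part of these cells in the Maob level was not tested.

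In WT 3 of the 10 members were higher (Slc6a3, Slc18a2, Tph2) and 1 lower (Maob) at E14.5 than at E12.5, where 27.3% of all genes tested were higher and 30.5% lower. From E14.5 to E16.5, 2 were higher (Slc6a3, Maob) and 1 lower (Slc18a2), against 29.3% and 28.2% of all genes. From E16.5 to PND0, 2 of the 9 tested were higher (Nr4a2, Maob) and 0 lower, against 26.0% and 27.2%. The members' shares lay near or under those of all genes. DESeq2 passed 5, 3 and 2 members at the 3 steps. At the middle step Slc6a3, Slc18a2 and Maob passed whichever library was left out. Others were gained: Th, Tph2, Slc6a4 and Fev, all lower at E16.5, without E16.5 WT replicate 2 (7 members in all), Nr4a2 without replicate 1 and Pitx3 without replicate 4. Without replicate 2 Slc6a4 differed by -1.001 on the log2 scale where the value with all 8 libraries was 0.22, and Tph2 by -1.51 where it was -0.08.

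Levels of different genes were compared per length, as CPM per kilobase of exons (CPM/kb). On that scale the order at every stage began with Nr4a2, then Slc18a2, Th and Ddc. The length used is the union of the exons of all transcripts, 4461 bases for Ddc and 2364 for Th. Their longest transcripts have 2018 and 1950 bases, so the place of Ddc in the order, also against Th, rests on the length chosen. Nr4a2 stood at 9.63 ± 1.57 CPM/kb in WT at E12.5 and 19.8 ± 2.76 CPM/kb at PND0, and Th at 3.69 ± 0.704 and 3.54 ± 0.779 CPM/kb. Slc6a3 was the last at E12.5 (0.147 ± 0.0886 CPM/kb) and came just after Ddc at PND0 (2.43 ± 1.42 CPM/kb). Pitx3 was in the middle of the order at E12.5 (1.19 ± 0.375 CPM/kb) and the last at PND0 (0.247 ± 0.211 CPM/kb). At E12.5 only Nr4a2 lay clear of its neighbour, and the ranges of the other 8 neighbouring pairs overlapped. At E14.5, 5 of the 9 neighbouring pairs did not overlap. With this length, that set apart Nr4a2, Slc18a2, Th and Ddc, each in turn, and Fev from Slc6a3. At E16.5 only Slc18a2 and Th did not overlap as neighbours. At PND0 only Nr4a2 over Slc18a2 and Slc18a2 over Th were clear. Ddc, Slc6a3 and Slc6a4 (2.44, 2.43 and 2.42 CPM/kb) could therefore not be ranked with this length.

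**Figure D1:**
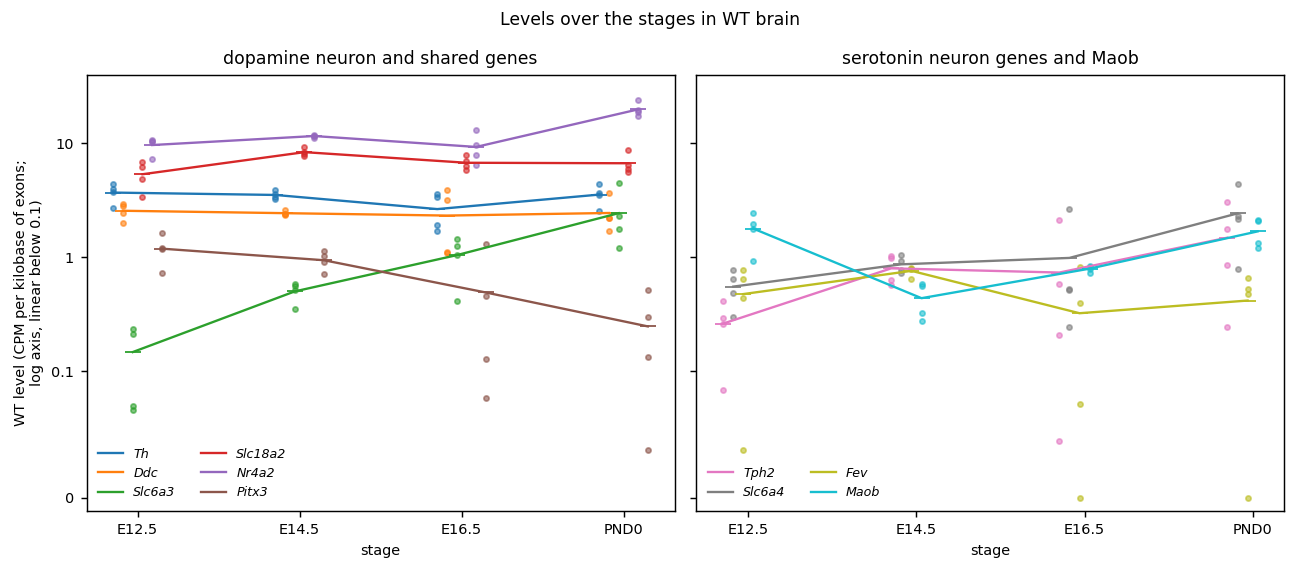
Level of each member in WT brain at E12.5, E14.5, E16.5 and PND0, in CPM per kilobase of exons on an axis that is logarithmic above 0.1 and linear below. Points are the 4 libraries of a stage and lines join the means; the mean of Slc6a3 went from 0.147 to 2.43 CPM/kb while that of Th stayed between 2.64 and 3.69, and the serotonin genes spread widely at E16.5.

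Between KO and WT, no member passed the threshold at any stage. By edgeR's quasi-likelihood test 0 members passed of the 9, 10, 10 and 9 that had counts enough to be tested at the 4 stages. Few genes of any kind passed: 0.0177%, 0.527%, 0.0462% and 1.44% of all genes tested. The numbers of members at an unadjusted p under 0.05 were 2, 1, 1 and 0. DESeq2 also passed 0 members at each stage, with 3, 1, 1 and 1 at an unadjusted p under 0.05, and gave an adjusted p to 10, 3, 1 and 7 of them. Fold changes lay above 0 for 7, 5, 7 and 1 members and below 0 for 2, 5, 3 and 8. The median log2 fold changes were 0.19, -0.01, 0.21 and -0.39, where those of all genes were 0.0031, 0.0015, 0.00020 and -0.00058. Groups did not overlap for 1 member at E12.5 (Tph2), for 2 at E16.5 (Slc6a3 and Maob) and for 0 at the other stages, against 2.73%, 4.78%, 6.45% and 11.7% of all genes in stage order. In whole brains, fewer cells of a type and less RNA per cell cannot be told apart.

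**Figure D2:**
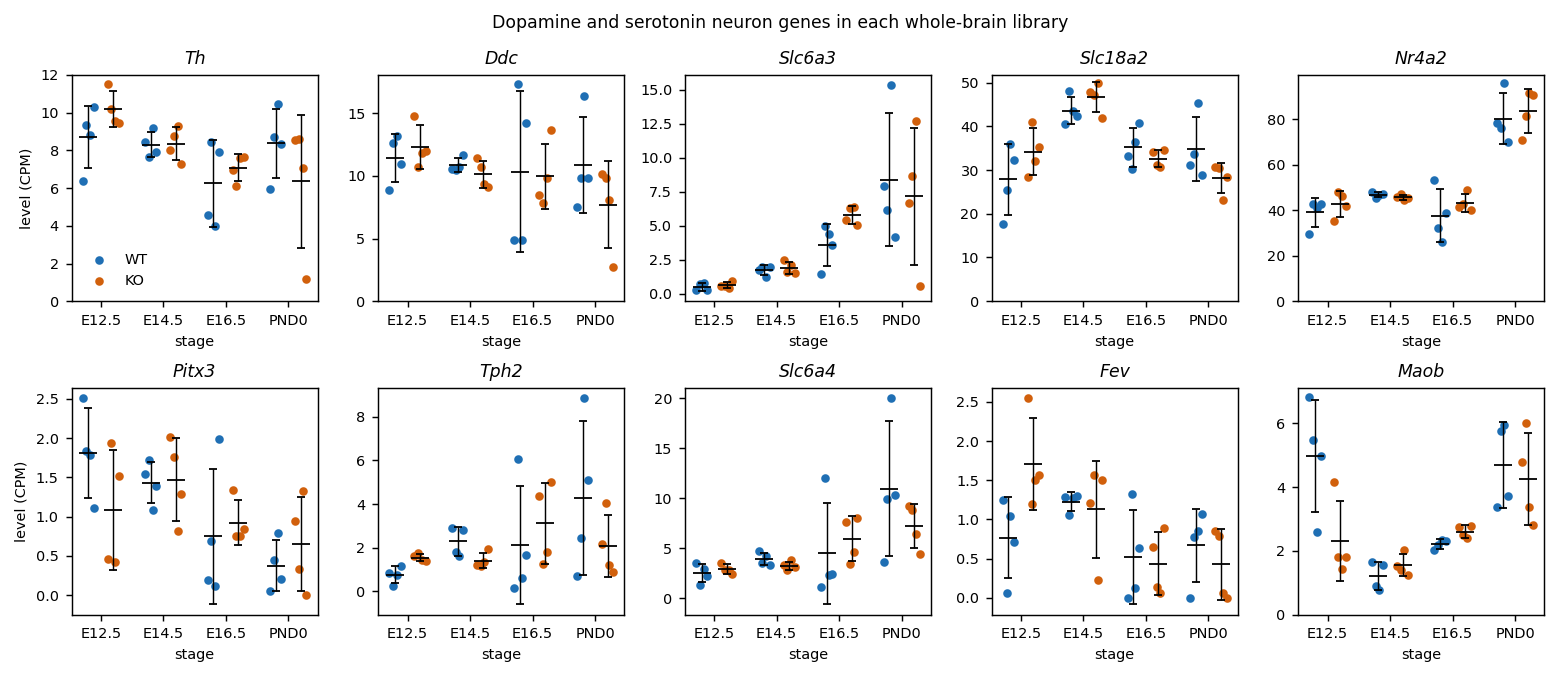
Level of each member in CPM in every library, WT in blue and KO in orange, by stage; horizontal bars are group means and vertical bars the SD over 4 libraries. At E12.5 and E14.5 the points of a group lie close together for Th and Ddc, while 1 KO library at PND0 lies far below the others for Th (1.201 CPM), Ddc (2.70 CPM) and Slc6a3 (0.6003 CPM).

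Among the genes of dopamine synthesis, Th in KO was at 11.5, 10.2, 9.57 and 9.44 CPM at E12.5 and at 8.04, 8.75, 9.32 and 7.30 CPM at E14.5. The WT libraries given above overlapped with these at both stages. The log2 fold change of Th was 0.20 (95% interval -0.16 to 0.55, and 0.08 without WT replicate 1) at E12.5 and 0.01 (-0.23 to 0.25) at E14.5. At E16.5 KO libraries were at 6.94, 6.14, 7.60 and 7.64 CPM, between the low and the high pair of WT libraries, and the log2 fold change was 0.17 (-0.32 to 0.66). At PND0 they were at 8.55, 8.59, 7.07 and 1.201 CPM, with a log2 fold change of -0.39 (-1.47 to 0.68). That value for Th rests on KO replicate 4, the library low in midbrain genes, and was -0.05 without it.

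Ddc in KO was at 14.8, 10.7, 11.8 and 11.98 CPM at E12.5. It was at 11.4, 10.7, 9.32 and 9.12 CPM at E14.5, and at E16.5 at 8.45, 7.86, 9.86 and 13.7 CPM. All 3 sets overlapped with WT, with log2 fold changes of 0.09, -0.09 and -0.06. At PND0 Ddc was at 10.2, 9.84, 8.10 and 2.70 CPM in KO and at 7.54, 9.82, 16.4 and 9.81 CPM in WT. The log2 fold change was -0.50 ± 0.373 (SE, adjusted p = 0.533, edgeR's quasi-likelihood test) and -0.21 without KO replicate 4. The narrowest interval for Ddc was at E14.5, from -0.31 to 0.12.

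Slc6a3 gave the clearest difference of the dopamine genes at E16.5. It was at 5.43, 6.28, 6.41 and 5.08 CPM in KO and at 1.43, 5.01, 4.37 and 3.59 CPM in WT, so every KO library lay above every WT library, the nearest pair being 5.08 and 5.01 CPM. The log2 fold change was 0.67 ± 0.281 (95% interval 0.05 to 1.29), which did not pass the threshold (adjusted p = 0.402, edgeR's quasi-likelihood test). Without WT replicate 1, the library low in midbrain genes, the value for Slc6a3 was 0.41 (adjusted p = 0.239). With the mean of the midbrain genes as a covariate it was 0.59 (adjusted p = 0.142). It passed only in the fit without the filter on low counts (0.67, adjusted p = 0.0363). At the other stages the groups overlapped: the values were 0.13 ± 0.252 at E14.5 and -0.22 ± 0.777 at PND0, and at E12.5 its 4 to 16 counts a library were too few for a test. At PND0 Slc6a3 was at 6.70, 8.65, 12.7 and 0.6003 CPM in KO, and without KO replicate 4 the log2 fold change was 0.16. Without WT replicate 3 (15.4 CPM) it was 0.24.

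Slc18a2 in KO overlapped with WT at every stage. It was at 28.4, 41.0, 32.1 and 35.3 CPM at E12.5 and at 47.9, 47.2, 49.95 and 41.9 CPM at E14.5. In the later KO brains it was at 34.2, 31.0, 30.7 and 34.5 CPM (E16.5) and at 30.8, 30.5, 23.2 and 28.5 CPM (PND0). The log2 fold changes in stage order were 0.27 (0.11 without E12.5 WT replicate 1, -0.15 with the midbrain covariate), 0.10, -0.11 and -0.30. The last had a standard error of 0.142 and an adjusted p of 0.280 by edgeR's quasi-likelihood test. At PND0 it was -0.30 without KO replicate 4, and -0.15 when the highest WT library, replicate 3 (45.4 CPM), was left out.

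Of the transcription factors, Nr4a2 in KO was at 35.4, 48.0, 46.5 and 41.7 CPM at E12.5 and at 45.8, 47.3, 44.7 and 45.3 CPM at E14.5. Later it was at 41.5, 42.8, 48.9 and 40.1 CPM (E16.5) and at 70.8, 81.3, 91.8 and 90.7 CPM (PND0), and KO and WT overlapped at every stage. The log2 fold changes in stage order were 0.11, -0.03, 0.20 (0.42 without WT replicate 1 and 0.06 without WT replicate 3) and 0.06. With the midbrain covariate the E12.5 value of Nr4a2 was -0.12. At E14.5 the 95% interval ran from -0.14 to 0.07, the narrowest of any member. Pitx3 was at 0.463, 1.94, 0.421 and 1.51 CPM in KO at E12.5, where WT was at 2.51, 1.84, 1.79 and 1.11 CPM. A low pair of KO libraries (replicates 1 and 3, with 6 and 7 counts) stood under all WT libraries and the other pair did not. Its log2 fold change was -0.74 ± 0.486 (adjusted p = 0.875, edgeR's quasi-likelihood test). Pitx3 differed by 0.05 ± 0.290 at E14.5 and by 0.32 ± 0.668 at the next stage, and was not tested at PND0, where KO libraries had 19, 5, 23 and 0 counts. The count of 0, in replicate 4, allows up to 0.180 CPM.

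The serotonin genes lay above WT at some stages and below it at others, and no difference passed the threshold. At E12.5 Tph2 was at 1.62, 1.74, 1.44 and 1.39 CPM in KO and at 0.837, 0.246, 0.751 and 1.18 CPM in WT, with every KO library above every WT library. The log2 fold change of Tph2 was 0.96 ± 0.365 (95% interval 0.14 to 1.78, adjusted p = 0.875, edgeR's quasi-likelihood test). With the midbrain covariate it was 0.62. At E14.5 KO was lower in mean, at 1.21, 1.14, 1.34 and 1.92 CPM against 2.92, 1.82, 1.63 and 2.81 CPM, and 1 KO library overlapped with WT. The log2 fold change was -0.72 ± 0.261 (95% interval -1.25 to -0.19, adjusted p = 0.336). KO was at 4.36, 1.24, 1.82 and 5.02 CPM at E16.5 and at 2.15, 4.03, 1.21 and 0.9004 CPM at PND0. The groups overlapped widely, and the log2 fold changes were 0.54 ± 0.957 and -1.06 ± 0.728. The PND0 value of Tph2 was -0.43 without WT replicate 3 and -1.57 without KO replicate 2.

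Slc6a4 in KO was at 3.55, 2.80, 2.83 and 2.42 CPM at E12.5 and at 3.26, 2.79, 3.78 and 3.11 CPM at E14.5. It was at 7.64, 3.45, 4.59 and 8.03 CPM at E16.5 and at 9.20, 8.85, 6.43 and 4.44 CPM at PND0. The groups overlapped at each stage, and the log2 fold changes were 0.19, -0.28, 0.39 and -0.60. At E16.5 the value depends on single WT libraries: without replicate 2, at 12.05 CPM, it was 1.61 for Slc6a4 and 1.97 for Tph2, and without replicate 1 it was 0.08 and 0.17. The adjusted p in these 4 fits ran from 0.153 to 0.971 by edgeR's quasi-likelihood test. At PND0 Slc6a4 gave -0.42 without KO replicate 4, and -0.13 when WT replicate 3 (20.03 CPM) was left out.

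Fev had 0 to 40 counts a library. In KO it was at 2.55, 1.202, 1.505 and 1.57 CPM at E12.5, where the WT libraries were at 0.0614 to 1.25 CPM, and the log2 fold change was 1.11 ± 0.537 (adjusted p = 0.875, edgeR's quasi-likelihood test). The other values for Fev were -0.08 ± 0.346, -0.23 ± 0.981 and -0.65 ± 0.956 in stage order. These intervals are wide, and the one at E16.5 ran from -2.48 to 2.01. Maob was at 4.17, 1.80, 1.44 and 1.82 CPM in KO at E12.5 and at 6.81, 5.46, 2.60 and 4.97 CPM in WT, and KO replicate 1 fell within the WT range. The log2 fold change was -1.15 ± 0.389 (95% interval -2.02 to -0.28, adjusted p = 0.875). It was -0.95 without WT replicate 1 and -0.60 with the midbrain covariate. Pituitary genes summed to 5.54 to 48.8 CPM in WT and 1.32 to 11.97 CPM in KO at that stage, with Pou1f1 and Prl at 0 in both groups; their part in the Maob difference was not tested. At E16.5 Maob was at 2.74, 2.48, 2.39 and 2.79 CPM in KO, every library above the 2.02 to 2.34 CPM of WT, with a log2 fold change of 0.23 ± 0.171 (adjusted p = 0.630). At E14.5 and PND0 the values for Maob were 0.35 ± 0.305 and -0.14 ± 0.278.

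**Figure D3:**
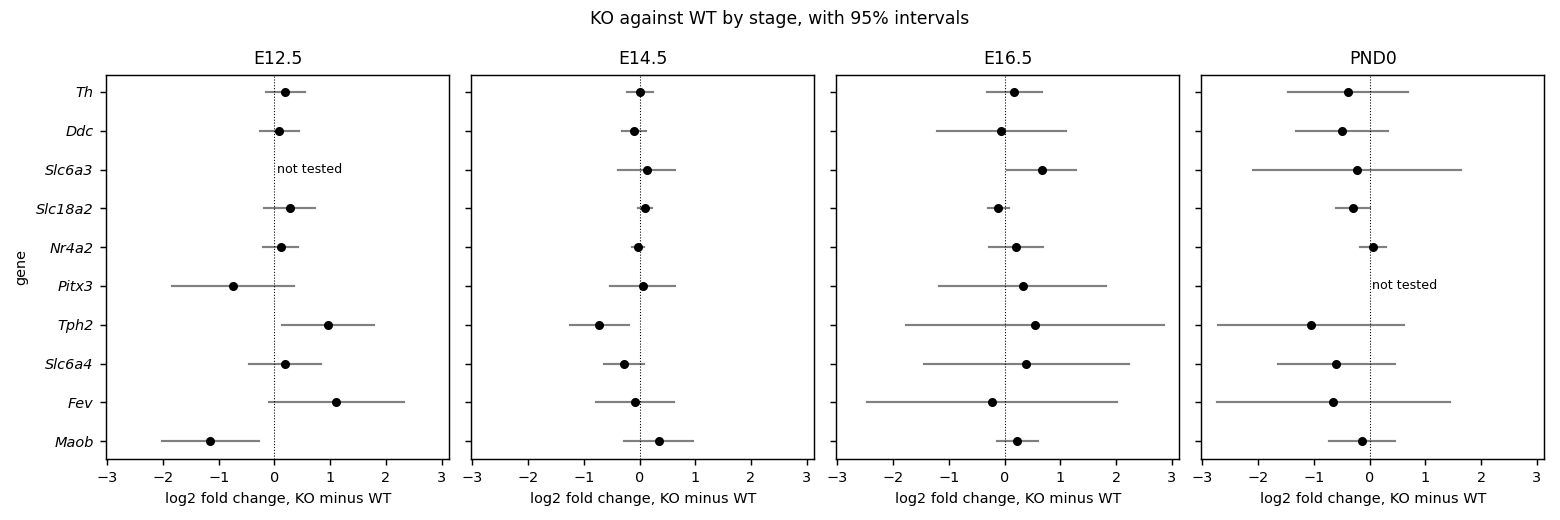
Log2 fold change of each member, KO minus WT, at the 4 stages (points) with 95% intervals from edgeR's quasi-likelihood fit (lines); Slc6a3 at E12.5 and Pitx3 at PND0 had too few counts to be tested. The interval of Nr4a2 at E14.5 (-0.14 to 0.07) is the narrowest of those drawn, and those of Tph2 and Fev at E16.5 are the widest.

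The KO effect was not shown to change with stage for any member. In the fit of all 32 libraries 0 of 10 members passed the test of the genotype effect by stage, against 0.0256% of all 19541 genes. 1 member, Maob, had an unadjusted p under 0.05, and its adjusted p was 0.232 by edgeR's quasi-likelihood test. DESeq2 passed 0 members, with 2 at an unadjusted p under 0.05. Leaving out both libraries low in midbrain genes also gave 0.

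By the median spread, brains of one group were most alike at E14.5, in these genes as in all genes. The standard deviation of log2 CPM within groups, pooled over WT and KO, ran from 0.0337 to 0.778 over the 10 members at E14.5, with a median of 0.257. It ran from 0.225 to 1.02 at E12.5 (median 0.505), from 0.0982 to 1.56 at E16.5 (median 0.645), and from 0.184 to 1.62 at PND0 (median 0.878). Maob was the exception, with a smaller value at E16.5 (0.0982) than at E14.5 (0.405). For all genes at 1 CPM or more the medians were 0.226, 0.104, 0.135 and 0.197 in stage order. Each member was also set beside the genes within a factor of 2 of its level. By that measure 8, 5, 9 and 10 of the 10 members were above the median gene at the 4 stages. Tph2 at E16.5 had a standard deviation of 1.56, where genes of its level had a median of 0.306, and Slc6a3 at PND0 had 1.44 against 0.367.

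The same few libraries held many of the extremes. PND0 KO replicate 4 was the lowest of the 8 PND0 libraries for 6 members (Th, Ddc, Slc6a3, Pitx3, Fev, Maob). E16.5 WT replicate 1 was the lowest of its stage for 6 (Ddc, Slc6a3, Tph2, Slc6a4, Fev, Maob) and the highest for Nr4a2. E16.5 WT replicate 2 was the highest of its stage for 5 (Th, Ddc, Tph2, Slc6a4, Fev), and PND0 WT replicate 3 for 7. PND0 WT replicate 3 also had the highest midbrain sum of its stage (149.1 CPM), and E16.5 WT replicate 2 the highest Hox sum and the highest sum of brainstem neuron genes (23.3 CPM). At E12.5 WT replicate 1, high in Hox genes, was the lowest library for Th, Ddc, Slc6a3, Slc18a2 and Nr4a2. The same library was the highest of its stage for Pitx3 (2.51 CPM) and Maob (6.81 CPM). What set these sums was not tested.

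**Figure D4:**
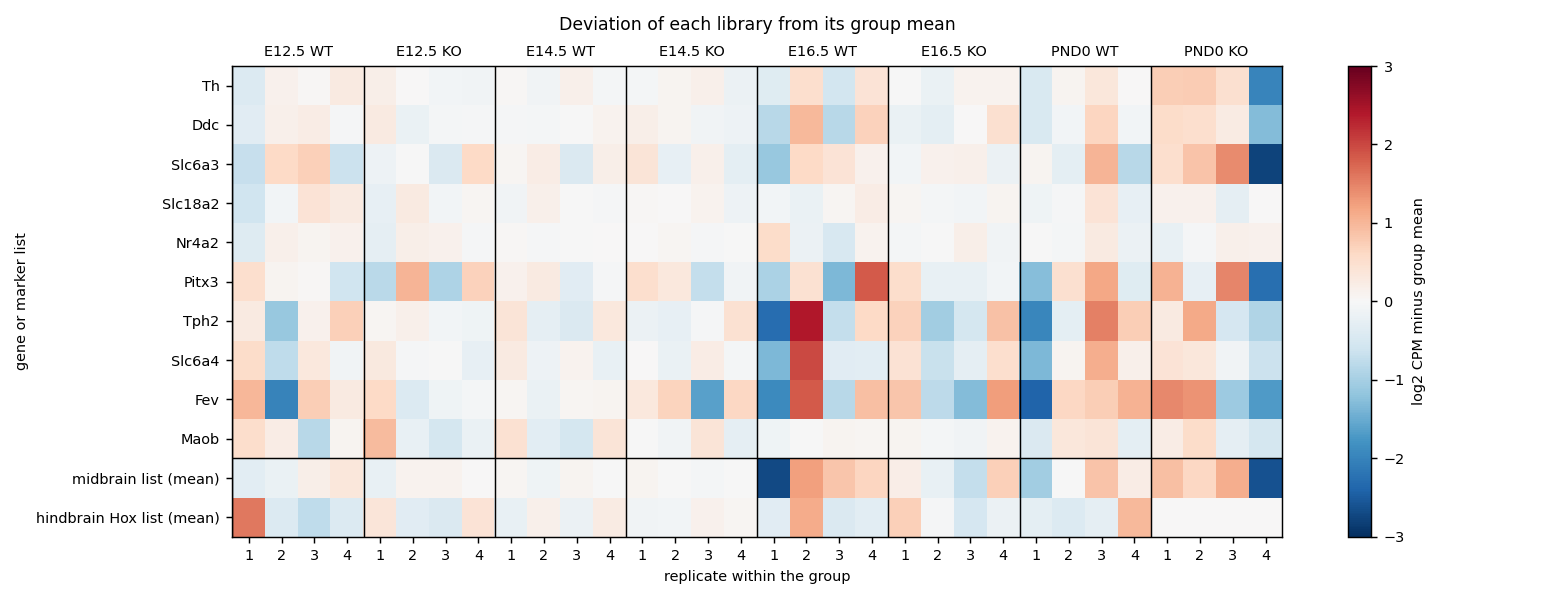
Deviation of log2 CPM from the mean of the library's own group for the 10 members and for the mean of the midbrain and hindbrain Hox lists; columns are the 32 libraries, red is higher and blue lower. E16.5 WT replicate 1 and PND0 KO replicate 4 are blue in the midbrain list and in most members. In both, Nr4a2 lies above its group mean (by 0.55 and 0.12) and Slc18a2 close to it (-0.08 and 0.02). The PND0 KO libraries and PND0 WT replicate 2 all have 0 Hox counts.

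The members moved in sets from brain to brain. Correlations here are of deviations from the group mean of log2 CPM over the 32 libraries, given as descriptions; the points share a library, its depth and its dissection. Tph2 and Slc6a4 had a Pearson r of 0.90 (Spearman 0.75), Tph2 and Fev 0.83 (0.82) and Slc6a4 and Fev 0.77 (0.76). Th and Ddc had 0.86 (0.82). Over the 16 libraries of E12.5 and E14.5 these links were lower, at 0.55, 0.58, 0.54 and 0.53 in that order. Over the 16 of E16.5 and PND0 they were at 0.94, 0.90, 0.83 and 0.88. Ddc, used by both cell types, had 0.69 with Tph2, with 0.79 over the 16 libraries of the later stages and -0.33 over the 16 of the earlier ones. Over the 30 libraries left without those low in midbrain genes, Tph2 and Slc6a4 had 0.87 and Th and Ddc 0.86. The other links among the dopamine genes were lower there: Th and Slc6a3 had 0.08 (0.74 over 32), Ddc and Slc6a3 0.25 (0.67), Slc6a3 and Pitx3 0.26 (0.60), Th and Pitx3 0.37 (0.65) and Ddc and Pitx3 0.47 (0.67). Over the 16 libraries of the earlier stages Th and Pitx3 had -0.47. Nr4a2 went the other way, with 0.48 (-0.03 over 32) for Th, 0.45 (-0.09) for Slc6a3, 0.41 (-0.07) for Ddc and 0.41 (0.05) for Pitx3. Over 32 libraries its lowest value was -0.41 with Fev, and its highest, 0.36 with Slc18a2, was also the highest for Slc18a2.

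**Figure D5:**
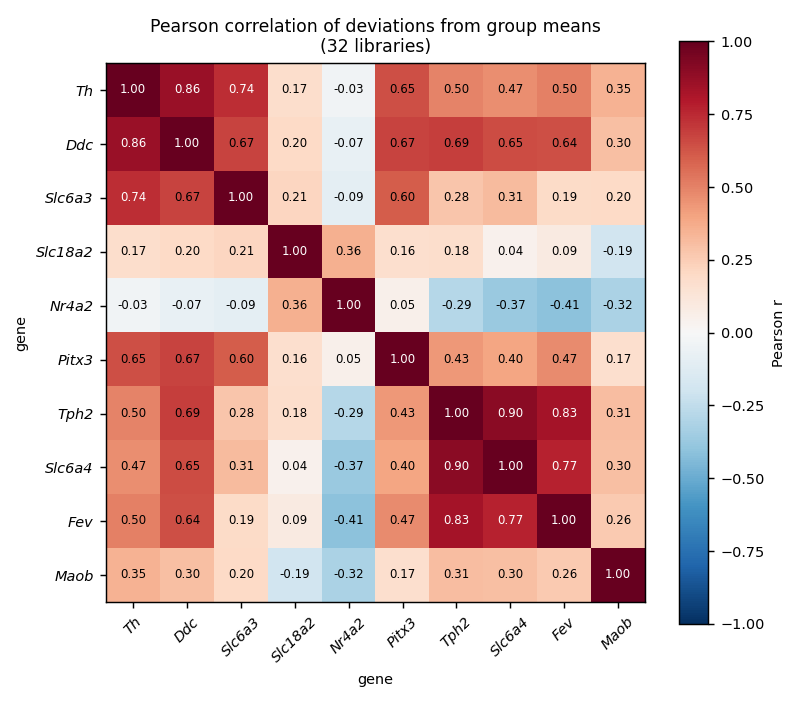
Pearson correlation between members of the deviations from the group mean of log2 CPM over 32 libraries, as colour and number. A block of Tph2, Slc6a4 and Fev (0.77 to 0.90) and a block of Th, Ddc, Slc6a3 and Pitx3 (0.60 to 0.86) stand out; over 30 libraries, which are not drawn, the latter has 0.08 to 0.47 apart from Th and Ddc. In the plot Nr4a2 is negative with Fev, Slc6a4, Maob and Tph2 (-0.41 to -0.29).

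Markers of the surrounding regions moved with the members to different degrees. With the mean of the midbrain list Th had r of 0.74, Ddc 0.75 and Slc6a3 0.72 over 32 libraries, and 0.43, 0.44 and 0.12 without the 2 libraries low in midbrain genes. Tph2 had 0.69 and 0.68. With the list of 8 brainstem neuron genes Slc6a4 had 0.76, Tph2 0.67 and Th 0.10, and with the cerebellum list Tph2 had 0.75 and Slc6a4 0.73. Slc18a2 had -0.61 with the Hox list (Spearman -0.29) and 0.47 with the forebrain list (Spearman 0.28).

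4 members were tested against the mean of the Hox list, by 100000 permutations within groups, two-sided. Th had r = -0.01 (p = 0.912) and Spearman's rho = 0.00 (p = 0.989), and Slc6a3 had r = -0.12 (p = 0.530) and rho = -0.04 (p = 0.844). Tph2 had r = 0.40 (p = 0.0992) and rho = 0.37 (p = 0.0625), and Slc6a4 had r = 0.46 (p = 0.0735) and rho = 0.37 (p = 0.0731). Adjusted over the 4 relations these became 0.198 and 0.146 for both serotonin genes, so neither held. Without the 2 libraries farthest from the median Hox level, E12.5 WT replicate 1 and E16.5 WT replicate 2, r was 0.27 for Tph2 and 0.21 for Slc6a4. Within the 8 libraries of E16.5 it was 0.71 and 0.80, and within those of E14.5 it was 0.23 and -0.52.

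The genes most like Slc6a3 and Tph2 were sought among the 16066 genes whose mean reached 1 CPM. By deviations from group means over 32 libraries, those nearest to Slc6a3 were Pou4f2 (r = 0.82), Gm33680 (0.82), Tmem163 (0.80), Asic4 (0.79) and Pou4f1 (0.79). Pou4f1 is itself one of the 8 midbrain genes. By the 8 group means they were Pcdhb18, Klhl1, Arhgef15, C1ql2 and Cadps (0.992 to 0.995). Those nearest to Tph2 by deviations were Slc6a4 (0.90), Ebf2 (0.87), Dbx1 (0.86), Nkx6-1 (0.84) and Lmx1b (0.81). Lmx1b, a homeobox factor of both lineages, is a member of the serotonin lineage list used below. By group means they were Sash3 (0.95), Cd160, Gm42741, Auh and Rps13-ps4 (0.88).

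Of the transcription factors and receptors that mark the lineages, 1 gene passed in a KO comparison. In the list of 15 midbrain dopamine lineage genes, 0 passed of the 13, 15, 15 and 14 tested at the 4 stages, with median log2 fold changes of 0.21, -0.04, 0.27 and -0.14. The smallest p at PND0 was that of Ret, the receptor of glial cell line-derived growth factor, at 26.6 CPM in WT and 17.2 CPM in KO, with a difference of -0.63 ± 0.197 on the log2 scale (adjusted p = 0.114, edgeR's quasi-likelihood test). At E12.5 it was that of En1, at 16.7 CPM in WT and 23.3 CPM in KO (adjusted p = 0.875). In the list of 8 serotonin lineage genes 1 of 6 tested was lower at E14.5, and 0 of 7 passed at each other stage. That gene was Gata2, a zinc finger factor used in serotonin and midbrain GABA neurons. It was at 17.1, 17.2, 19.5 and 19.5 CPM in WT and at 13.4, 15.1, 14.4 and 13.5 CPM in KO, with no overlap and a log2 fold change of -0.38 (adjusted p = 0.0257). At PND0 all 7 tested genes of that list were below WT (median -0.47), led by the receptor gene Htr1b at 15.6 CPM in WT and 9.22 CPM in KO (adjusted p = 0.108).

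Of the other monoamine genes, none passed in any KO comparison. The noradrenaline and adrenaline list of 6 genes had 4, 5, 4 and 2 tested. At PND0 Slc6a2, the noradrenaline transporter, was at 7.40 CPM in WT and 0.364 CPM in KO, where the groups overlapped and the adjusted p was 0.191 by edgeR's quasi-likelihood test. Of 9 genes of cofactor synthesis, storage and breakdown, 8 were tested at each stage and their medians lay between 0.03 and 0.17. The dopamine receptors had 3, 3, 3 and 2 of 5 tested, the smallest p at E16.5 being that of Drd2 (8.73 CPM in WT, 10.8 CPM in KO, adjusted p = 0.424). The serotonin receptors had 7, 9, 11 and 11 of 14 tested. At E16.5, 10 of 11 were above WT (median 0.20) and at PND0 all 11 were below it (median -0.30), led by Htr4 at 2.69 CPM in WT and 1.16 CPM in KO (adjusted p = 0.0923). The receptors' summed level at PND0 was 95.95 to 120.4 CPM in WT and 76.6 to 99.5 CPM in KO.

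The region lists were read in the same comparisons, since they bear on how the brains were taken. 2 of their genes passed. Pax5, of the midbrain list, was at 36.3, 37.4, 38.5 and 36.2 CPM in WT and at 30.8, 30.8, 29.1 and 32.2 CPM in KO at E14.5, a log2 fold change of -0.27 (adjusted p = 0.0184, edgeR's quasi-likelihood test). Slc6a5, the glycine transporter of brainstem and spinal cord neurons, was at 1.28, 1.74, 4.596 and 5.79 CPM in WT and at 0.400, 0.528, 0.345 and 0.240 CPM in KO at PND0, a log2 fold change of -3.14 (adjusted p = 0.0120). At PND0 the brainstem neuron list summed to 8.47 to 16.0 CPM in WT and 4.02 to 7.95 CPM in KO, without overlap. The forebrain list had 9 of 9 genes above WT (median 0.30). In the same libraries 8 of 9 members tested were below WT, with the median of -0.39 given above. Leaving out KO replicate 4 put Slc6a3 (0.16) and Maob (0.02) above WT. Leaving out WT replicate 3 also put Slc6a3 above WT (0.24). Th, Ddc, Slc18a2, Tph2, Slc6a4 and Fev stayed below it whichever library was left out. With the midbrain covariate Slc6a3, Fev and Maob (0.04 each) lay above WT, and the other members tested kept their sign. A KO effect on the members at PND0 and a difference in how much brainstem the KO libraries hold cannot be told apart.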

How the data were processed

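Whole-brain RNA was enriched for polyadenylated transcripts and sequenced as paired ends, per the labels' protocols. The authors deposited raw counts per gene symbol, 1 table a stage; HISAT2, SAMtools, featureCounts, DESeq2 and the build mm10 are named per the submitters' processing notes. Versions and the strand setting of the counting are not given in the sources used here. The members and gene lists were chosen with earlier results of these data known.

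Each comparison was fitted with edgeR 4.0.16 in R 4.3.3 (TMM, filterByExpr with a minimum count of 10 and total of 15, robust quasi-likelihood F test, Benjamini-Hochberg adjustment over all genes tested, threshold 0.05). KO was compared with WT within each stage, WT stages with their neighbours, and the KO effect between stages over all 32 libraries. Log2 CPM had a prior count of 2. The code was tested on simulated data. Alternatives were DESeq2 1.42.0, no filter on low counts, RLE size factors, all 32 libraries in 1 fit, a replicate block, covariates for Hox and for sex-linked genes, and leaving out each library. The midbrain covariate and leaving out both libraries low in midbrain genes together were chosen after seeing the data.

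Of 55291 symbols, 53180 matched 1 gene of GENCODE M21, 112 matched more than 1 and 1999 matched none. The genes named are the 10 members, Dhcr7, in each list those past the threshold or else that with the smallest p, and the 5 most like Slc6a3 and Tph2 by each measure. En2, Pou1f1, Prl and the genes overlapping members are also named, and were chosen after their values were seen. Intervals of fold changes are at 95%, and a floor of 3 counts covers counting error only. Samples are the labelled replicates, and no sample was left out.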

Additional observations from a re-analysis of the deposited data

Results flagged for a closer look

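Each of the 80 groups of 4 libraries (10 genes, 8 groups) was searched for a library whose gap to the nearest other exceeded Dixon's 95% critical share of the group's range. Chance marks about 1 group in 20, here 4, and 5 were found. Nr4a2, the dopamine lineage receptor, was at 29.6 CPM in E12.5 WT replicate 1, below the 41.2 to 43.0 CPM of the other 3 libraries. That library also held the highest Hox sum of its stage (22.9 CPM). Slc6a4, the serotonin transporter, was at 12.05 CPM in E16.5 WT replicate 2, above the 1.11 to 2.37 CPM of the others, and that library had the highest Hox sum of E16.5 (6.86 CPM). Pitx3 was at 1.34 CPM in E16.5 KO replicate 1, above 0.754 to 0.837 CPM. Fev was at 1.05 CPM in E14.5 WT replicate 2, below 1.27 to 1.302 CPM. Maob was at 4.17 CPM in E12.5 KO replicate 1, above 1.44 to 1.82 CPM.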

How the results depend on the processing

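Between KO and WT the number of members past the threshold stayed 0 at each stage under every alternative, leaving out each library included, with 1 exception: at E16.5 it was 1 (Slc6a3) with no filter on low counts. Of 608 recomputed KO fold changes, 35 changed sign, in 15 of 38 pairs of member and stage. For the KO effect by stage the number stayed 0. For WT from E12.5 to E14.5 it was 4, and 3 to 5 under other settings and 4 to 6 leaving out 1 library. For WT from E14.5 to E16.5 it was 3, and 1 with all 32 libraries, 6 with no filter on low counts, 5 with the sex-gene covariate and 3 to 7 leaving out 1 library. Without E16.5 WT replicate 2, Slc6a4 reversed from 0.22 to -1.001 on the log2 scale, the range leaving out 1 library being -1.001 to 0.53. For WT from E16.5 to PND0 it was 2, and 4 with all 32 libraries and 2 to 3 leaving out 1 library. The cause of these moves was not tested.

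The replicate numbers were not shown to pair WT and KO libraries: same-numbered libraries had correlations of deviations from -0.176 to 0.379, over 0.1 for all 4 pairs at no stage, and no stage had every library correlate best with its own number. With the replicate block, 0 members passed in each KO comparison and 5, 3 and 3 in the WT steps, where Slc6a4 (0.68, adjusted p = 0.0299) and Slc6a3 (1.10, adjusted p = 0.0391) were added. Depth limits Pitx3, Fev, early Slc6a3 and Tph2, whose counts fell to 0, 0, 4 and 2 in the lowest library. For Tph2 that library was E16.5 WT replicate 1.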
